A study of Mus musculus with 30 samples.

Results

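Cytochrome P450 enzymes are described here across mouse embryonic stem cells (ESCs), their renal derivatives and mouse kidneys. The P450 genes were taken by name: every symbol made of Cyp, a family number, a subfamily letter and a gene number, without the Cyp26 genes of retinoic acid breakdown. The rule found 91 genes of 23986 gene symbols in the table and left out 9 other Cyp symbols, among them the Cyp26 genes, the lanosterol demethylase gene Cyp51 and pseudogenes.

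P450 enzymes hold a heme group and insert an oxygen atom into lipids, steroids, vitamins and foreign compounds. Those of the endoplasmic reticulum receive electrons from the reductase Por, and those of mitochondria from ferredoxin. In the kidney they are known chiefly from the proximal tubule, where vitamin D is activated and broken down, and where arachidonic acid is turned into epoxides and hydroxy acids that act on vessels and salt transport.

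RNA was measured on Affymetrix whole-transcript mouse arrays in 10 groups of 3 arrays each. Mouse ESCs of a single line, kept on feeder fibroblasts, were primed with Fgf2 and activin A and differentiated in monolayers into mesoderm cells with Bmp4, activin A and Fgf2, into intermediate mesoderm cells with retinoic acid, activin A and Y27632, and into renal progenitors with Bmp7 and Fgf2. Dissociated progenitors were aggregated on filters with Y27632, treated briefly with CHIR99021 and Bmp7, and cultured in serum medium as 8D, 14D and 21D organoids (organoid days 8, 14 and 21). The in vivo groups were freshly dissected kidneys of E12.5 and E13.5 embryos, called embryonic kidneys when joined, and adult kidneys. No transgene or deletion was described for these groups, and the labels give neither strain nor age of the adult animals. Neither the labels nor the study's methods say whether replicates came from separate cultures or animals, so p-values measure only the spread between these samples.

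The arrays labelled batch 1 were 5 (the first replicate of E13.5 kidneys and of each of the 4 monolayer stages from ESCs to progenitors), and the other 25 were batch 2. Array medians lay between 5.76 and 5.94 on the log2 scale. The fixed markers matched the label of the adult kidneys, whose 15 proximal tubule genes averaged 10.89 to 11.25. The nephron progenitor gene Six2 was 9.41 to 10.33 in embryonic kidneys but only 5.08 to 5.36 in renal progenitors. Its RNA was thus near background where the label would place this marker. By immunostaining, a measure of protein, the study reported Six2 in part of the progenitor cells. Of the 10 genes chosen to check labels, Six2 among them, 5 were above background in progenitors. In every other group, undifferentiated ESCs included, 7 or 8 were, so this count does not check the progenitor label. The pluripotency gene Nanog was 11.24 to 11.77 in ESCs and still 8.32 to 10.06 in 21D organoids. Among renal progenitors, replicate 3 stood apart with Nanog at 5.21 against 9.88 and 8.48.

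Most P450 genes gave no signal beyond that of silent genes, and the adult kidney was the main exception. The signal of silent genes was read from 1399 genes of olfactory and vomeronasal receptors, and a P450 gene was called above background in a group when it exceeded the 95th percentile of those genes (4.99 to 5.64, depending on the array) on all 3 arrays. By this gauge 36 of the 91 genes were above background in at least 1 group and 55 in none. In adult kidneys 30 were above, against 14 to 20 in the other 9 groups, and 12 genes were above in adult kidneys alone. The count of 14 was that of renal progenitors, where the percentile itself was highest, at 5.64 and 5.5 on replicates 1 and 2. With the 99th percentile (5.84 to 6.9) the adult kidneys held 23 and the other groups 5 to 10.

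Of the 36 genes above background somewhere, 22 had their highest group mean in adult kidneys. As 12 of the 36 passed only through the adult arrays, they had to peak there, and the count is a description. Renal progenitors held the highest mean of 6, ESCs of 4, 21D organoids of 2, and mesoderm cells and 8D organoids of 1 each. Of all genes, not filtered by background, 28.9% had their highest mean in adult kidneys, 14.6% in renal progenitors and 11.6% in ESCs. The share was 7.8% in 21D organoids, 11.8% in mesoderm cells and 2.92% in 8D organoids. The smaller counts are therefore a description too. In all 10 groups 10 genes were above background, among them Cyp20a1, an enzyme without a known substrate, and Cyp39a1, which hydroxylates oxysterols.

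**Figure D1:**
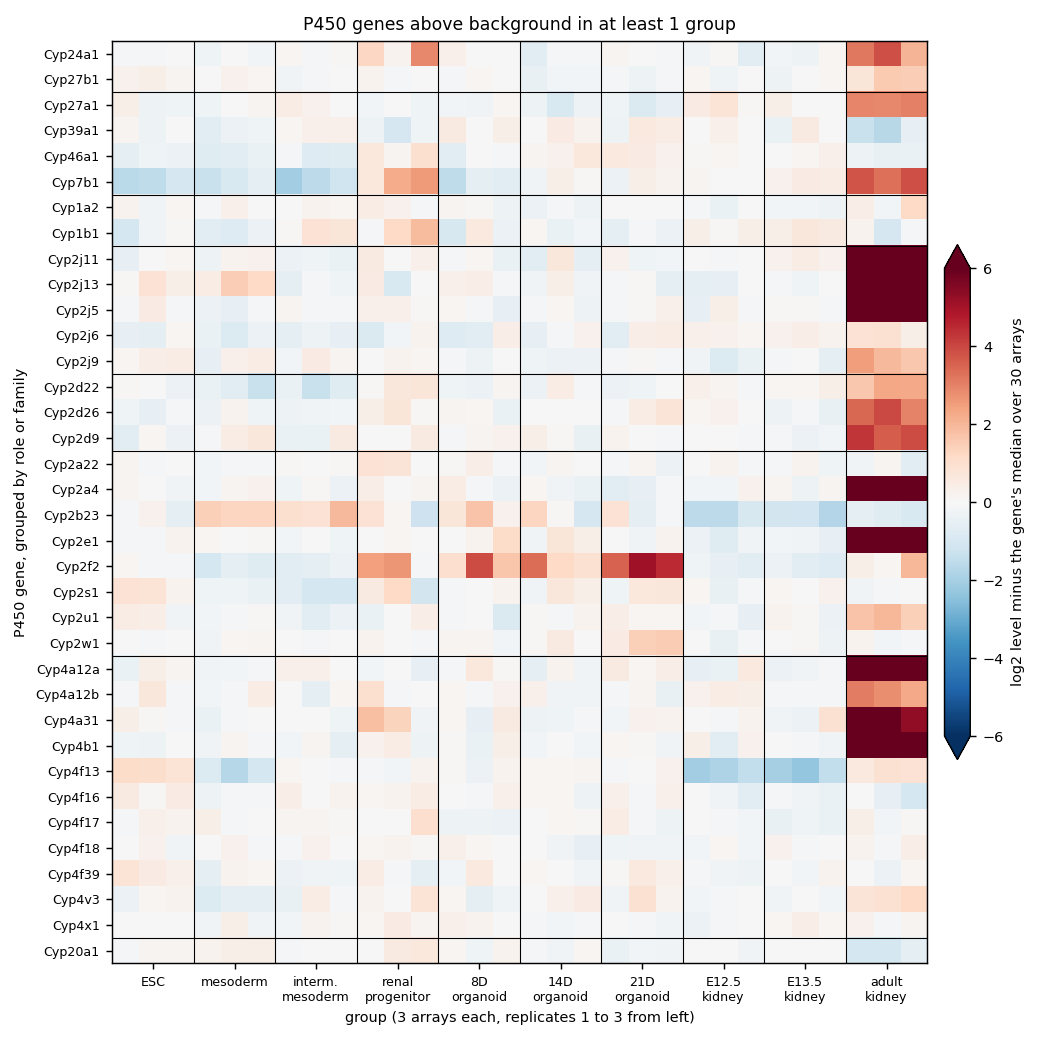
The 36 P450 genes above background in at least 1 group are shown as rows, grouped by role or family, and the 30 arrays as columns. Colour gives the log2 level minus the gene's own median over all arrays, and darkest colours stand for differences of 6 or more. The adult kidney columns hold most of the strong red, Cyp2f2 is raised in progenitors and organoids, and Cyp7b1 in progenitors and adult kidneys.

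Adult kidneys were compared with embryonic kidneys to ask which P450 genes separate the mature from the forming organ. In fatty acid metabolism 6 of 7 Cyp2j genes and 12 of 18 family 4 genes rose, although 1 and 5 of these were at background in both groups. Cyp2e1, of small foreign compounds, and Cyp24a1 and Cyp27b1, of vitamin D, rose too, while Cyp2r1, Cyp39a1, Cyp20a1, Cyp46a1 and Cyp1b1 fell. Higher in adult kidneys were 38 of 91 P450 genes (41.8%), where 24.3% of all genes tested were called higher, and lower were 5 (5.49%), where 25.4% of all genes were. Only 16 and 18 of the 91 were above background in E12.5 and E13.5 kidneys, and a gene at background has little room to fall. The low share of falls is therefore no result about P450 genes. The same holds below wherever a fall would start from cultured cells or embryonic kidneys. The median log2 difference was 0.401 over the P450 genes and 0.082 over all genes. Calls came from limma with batch as a term and Benjamini-Hochberg adjustment over all genes, at an adjusted p under 0.05. These are whole tissues, in which fewer cells of a type and less RNA per cell cannot be told apart.

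The background gauge limits the size of many of these changes. Of the 43 genes called, 17 were at background on all arrays of the lower group, and for them the fold is given only as a bound, taking the background percentile of each array where it exceeded the gene's own value. For 10 more, both groups were at background, and no fold is given. Counted in this way, 19 of the genes called higher and 1 of those called lower changed at least 2-fold.

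The Cyp2j genes encode epoxygenases and hydroxylases of arachidonic acid, and the 7 measured genes lie side by side in the order Cyp2j13, Cyp2j12, Cyp2j11, Cyp2j8, Cyp2j6, Cyp2j9 and Cyp2j5. Of them 6 passed the test, all higher in adult kidneys. Cyp2j5, the epoxygenase long known from mouse kidney, was 12.71, 12.90 and 12.77 on the adult arrays, against a lowest, median and highest level of 3.01, 3.52 and 3.86 on the 6 embryonic arrays. Its 27 other arrays, organoids included, never exceeded 4.02. The difference was 9.31 ± 0.17 on the log2 scale (SE, adjusted p = 4.19e-23), which is at least 206-fold.

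Cyp2j13 was 11.49, 11.82 and 11.53 in adult kidneys and 3.74, 4.15 and 4.34 (lowest, median, highest) in embryonic kidneys, a difference of 7.50 ± 0.25 (at least 90.9-fold, adjusted p = 5.18e-18). Cyp2j11 was 10.61, 10.73 and 10.69 against 4.24, 4.50 and 4.82, at least 47.5-fold higher (log2 difference 6.14 ± 0.22, adjusted p = 1.20e-17). For these genes, which include both ends of the cluster, no adult array came near an embryonic array. Cyp2j9, measured in both groups, rose by 2.31 ± 0.18 on the log2 scale (4.95-fold, adjusted p = 9.38e-11). Cyp2j8, at background in embryonic kidneys, was at least 1.31-fold higher (adjusted p = 2.29e-06). Cyp2j12 passed the test with a log2 difference of 0.44 ± 0.15 (adjusted p = 0.014), but its arrays overlapped, both groups were at background and the call was lost without adult replicate 1 (adjusted p = 0.0996). Cyp2j6 did not pass (0.40 ± 0.26, adjusted p = 0.225), at 7.07, 7.14 and 6.55 in adult kidneys and 6.35, 6.49 and 6.62 in embryonic kidneys.

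Family 4 enzymes hydroxylate the far end of fatty acid chains, and 12 of the 18 measured were higher in adult kidneys, none lower. Of the 12, Cyp4a29, Cyp4a30b, Cyp4f14, Cyp4f15 and Cyp4f40 were at background in both groups. Cyp4a12a, the main arachidonic acid omega-hydroxylase of the mouse, was 12.25, 12.16 and 11.98 in adult kidneys and 3.26, 3.47 and 4.35 (lowest, median, highest) in embryonic kidneys. The groups lay far apart, at least 130-fold (log2 difference 8.51 ± 0.21, adjusted p = 1.59e-20). Its near copy Cyp4a12b rose by 2.59 ± 0.23, but sequences that close may share probe signal, so their separate sizes are uncertain.

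Cyp4b1, which activates several plant and industrial toxins, was between 12.44 and 12.60 on the adult arrays and 4.72, 5.27 and 5.69 in embryonic kidneys, a 150-fold difference (log2 7.23 ± 0.20, adjusted p = 8.78e-20). Cyp4a31 was 11.02, 10.80 and 10.15 in adult kidneys against 4.46, 4.75 and 5.72 in embryonic kidneys (log2 difference 5.80 ± 0.31, adjusted p = 5.14e-14). Only 1 of its 6 embryonic arrays exceeded background, and with the background percentile as floor the log2 difference was 5.44. Cyp4f13, a fatty acid hydroxylase gene, was 8.28, 8.62 and 8.56 in adult kidneys and 5.36, 5.78 and 6.24 in embryonic kidneys, 6.38-fold higher (adjusted p = 5.84e-12). For each of these genes every adult array exceeded every embryonic array. Cyp4f13 differed from the rest in being well measured in cultured cells too, with 8.54 to 8.78 in ESCs and 7.36 to 7.98 in the organoids.

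In the rest of family 2, 5 of 16 genes rose and none fell, although Cyp2b13 was at background in both groups. Cyp2e1, which oxidizes ethanol and small solvents, was 12.39, 12.60 and 12.47 in adult kidneys against 4.15, 4.58 and 4.68 in embryonic kidneys, at least 167-fold higher (log2 difference 7.98 ± 0.20, adjusted p = 1.03e-20). Cyp2a4, a steroid hydroxylase with close copies in the genome, was 10.14, 9.56 and 9.96 against 2.61, 2.90 and 3.13, at least 27.5-fold higher (log2 difference 7.01 ± 0.18, adjusted p = 3.41e-20). Neither gene overlapped between the groups. Cyp2u1, a hydroxylase of long-chain fatty acids, was 7.34, 7.59 and 7.05 against 5.13, 5.49 and 5.81 and rose 3.64-fold (adjusted p = 2.01e-08).

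Of 9 Cyp2d genes 5 rose and none fell, although Cyp2d12 was at background in both groups. Cyp2d9, a steroid hydroxylase known in mouse liver for its male bias, was 7.06, 6.41 and 6.68 in adult kidneys and 2.44, 2.69 and 2.78 in embryonic kidneys, at least 3.05-fold higher (adjusted p = 1.03e-14). Cyp2d26 was 8.14, 8.64 and 7.68 against 4.22, 4.60 and 4.93, at least 8.26-fold higher (adjusted p = 6.23e-14). Cyp2d22 was already above background in embryonic kidneys, at 5.94, 6.18 and 6.39, and was 7.68, 8.37 and 8.32 in adult kidneys, 3.86-fold higher (adjusted p = 6.02e-08). All 3 genes kept their adult arrays above every embryonic array.

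Of 15 Cyp2c genes 5 rose, all with low signal. Cyp2c67 and Cyp2c69 were at background in both groups, and Cyp2c29 and Cyp2c70 exceeded it on only 1 of 3 adult arrays. Cyp2c23, known as an arachidonic acid epoxygenase of rodent kidney, was 6.68, 5.06 and 5.70 in adult kidneys, with 2 of the arrays above background, and 3.85, 4.17 and 4.49 in embryonic kidneys. It was at least 1.63-fold higher (log2 difference 1.66 ± 0.25, adjusted p = 3.01e-06). None of the 7 family 3 genes passed the test in this comparison.

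**Figure D2:**
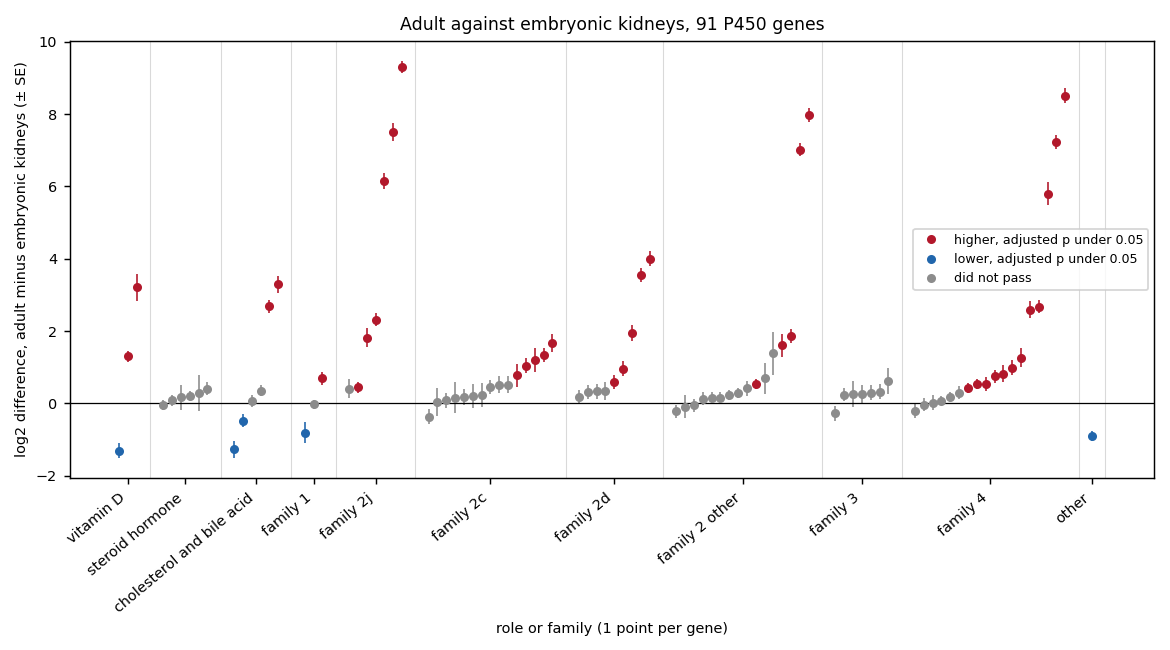
Each of the 91 P450 genes is a point with its SE, set by role or family on the horizontal axis, and the vertical axis is the log2 difference between adult and embryonic kidneys. Red points rose, blue points fell and grey points did not pass. Cyp2j5, Cyp4a12a and Cyp2e1 are plotted at 9.31, 8.51 and 7.98. For genes at background in embryonic kidneys, these 3 included, the plotted difference is the fitted value and its size is known only as the bound in the text.

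Promoters are shown for genes with large rises in adult kidneys that had an entry, and for Cyp2f2, which led in organoids. RefSeq windows (build GRCm38.p6) were found for 69 of the 91 genes, and the 250 bases before the start of transcription were searched on both strands for TATAAA (the TATA box), AGGTCA (a nuclear receptor element), GTTAAT (part of the HNF1 element), GGTTCA and AGTTCA (vitamin D receptor elements), GCGTG (the core bound by the Ah receptor) and TTCNNNGAA (the STAT element). The capitals mark every match, 5′ to 3′ on the gene's strand.
Cyp2j5, chr4:96664120-96664369, minus strand: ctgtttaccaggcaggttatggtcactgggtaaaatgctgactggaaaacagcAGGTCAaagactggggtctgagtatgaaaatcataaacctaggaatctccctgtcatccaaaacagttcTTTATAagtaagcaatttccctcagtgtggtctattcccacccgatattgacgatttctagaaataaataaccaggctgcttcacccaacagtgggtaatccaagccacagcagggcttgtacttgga
Cyp2j13, chr4:96077541-96077790, minus strand: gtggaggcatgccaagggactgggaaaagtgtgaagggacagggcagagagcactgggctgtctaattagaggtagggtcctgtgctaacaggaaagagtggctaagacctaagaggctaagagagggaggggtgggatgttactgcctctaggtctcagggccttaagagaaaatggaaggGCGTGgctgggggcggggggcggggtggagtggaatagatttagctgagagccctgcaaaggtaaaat
Cyp2e1, chr7:140763569-140763818, plus strand: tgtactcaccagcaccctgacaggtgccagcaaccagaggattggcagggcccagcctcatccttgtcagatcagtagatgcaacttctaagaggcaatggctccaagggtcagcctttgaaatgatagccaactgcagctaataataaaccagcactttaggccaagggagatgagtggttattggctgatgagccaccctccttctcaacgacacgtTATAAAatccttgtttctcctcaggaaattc
Cyp2a4, chr7:26306942-26307191, plus strand: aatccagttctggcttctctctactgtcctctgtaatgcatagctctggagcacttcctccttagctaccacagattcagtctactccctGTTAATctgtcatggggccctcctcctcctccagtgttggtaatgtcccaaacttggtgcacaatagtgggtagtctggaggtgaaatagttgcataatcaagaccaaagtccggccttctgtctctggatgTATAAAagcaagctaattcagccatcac
Cyp4b1, chr4:115647722-115647971, minus strand: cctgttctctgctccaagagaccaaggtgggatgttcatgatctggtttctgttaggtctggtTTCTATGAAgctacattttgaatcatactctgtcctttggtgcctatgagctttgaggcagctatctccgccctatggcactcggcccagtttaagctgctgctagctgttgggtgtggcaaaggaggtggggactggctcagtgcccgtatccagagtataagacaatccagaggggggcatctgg
Cyp2f2, chr7:27119705-27119954, plus strand: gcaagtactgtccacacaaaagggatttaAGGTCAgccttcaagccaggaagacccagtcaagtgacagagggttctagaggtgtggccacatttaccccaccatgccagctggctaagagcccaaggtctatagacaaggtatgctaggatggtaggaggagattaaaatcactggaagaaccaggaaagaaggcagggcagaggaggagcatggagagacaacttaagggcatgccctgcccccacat

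Cyp2e1 and Cyp2a4 carried TATAAA on the gene's own strand, with its T at 31 and 28 bases before the start. In Cyp2j5 those letters occurred only on the opposite strand, 128 bases before the start, with AGGTCA at 197 bases. The window shown for Cyp2j13, 1 of its 2, held only GCGTG, and that of Cyp4b1 only TTCNNNGAA, which reads alike on both strands. No letter of these windows belonged to more than 1 of the motifs.

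For the shares, a gene was counted when any of its windows held the motif. TATAAA was found in 34.8% of the 69 P450 genes, against 14.3% of all 27025 genes with a window. Of the 38 P450 genes that rose in adult kidneys, only 27 had a window. The rest, Cyp4a12a among them, do not enter these shares. Among the 27 the share of TATAAA was 33.3%, and among the other 42 genes with a window it was 35.7%. GTTAAT was in 6 of the 27 (22.2%) and in 3 of the other 42 (7.14%), with 7.49% over all genes. AGGTCA was in 18.5% of the 27 and 31% of the other 42 (all genes 15.8%), GGTTCA in 14.8% and 11.9% (all genes 10.1%), and AGTTCA in 18.5% and 14.3% (all genes 13.4%). GCGTG was in 22.2% and 21.4% (all genes 30.9%), and TTCNNNGAA in 14.8% and 2.38% (all genes 8.13%). Such matches describe letters and are not shown to be sites.

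The 3 vitamin D genes did not move together. Cyp24a1, which breaks down active vitamin D, was 8.20, 8.92 and 7.09 in adult kidneys. Embryonic kidneys had 4.37, 4.85 and 5.14 (lowest, median, highest). Adult kidneys were 9.25-fold higher (log2 difference 3.21 ± 0.37, adjusted p = 5.28e-08). Only 1 of the 6 embryonic arrays exceeded background, and with the background percentile as floor the log2 difference was 2.95. In the comparisons below its lower group also had only 1 array above background, so the size of those folds is uncertain. Cyp27b1, which makes active vitamin D, was 5.60, 6.45 and 6.35 against 4.57, 4.87 and 5.0, at least 2.04-fold higher (log2 difference 1.30 ± 0.15, adjusted p = 3.90e-08). Adult arrays lay above all embryonic arrays for each. Cyp2r1, the enzyme of the step before, done mainly in liver, was lower, at 3.23, 3.36 and 4.13 against 4.62, 4.88 and 5.33 (log2 difference -1.31 ± 0.21, adjusted p = 6.56e-06), but only 1 embryonic array exceeded background. Of 13 other genes of vitamin D and mineral handling, 11 rose and 1 fell, among them the receptor gene Vdr, at 10.88, 10.68 and 10.29 in adult kidneys and 5.34 to 5.75 in embryonic kidneys.

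**Figure D3:**
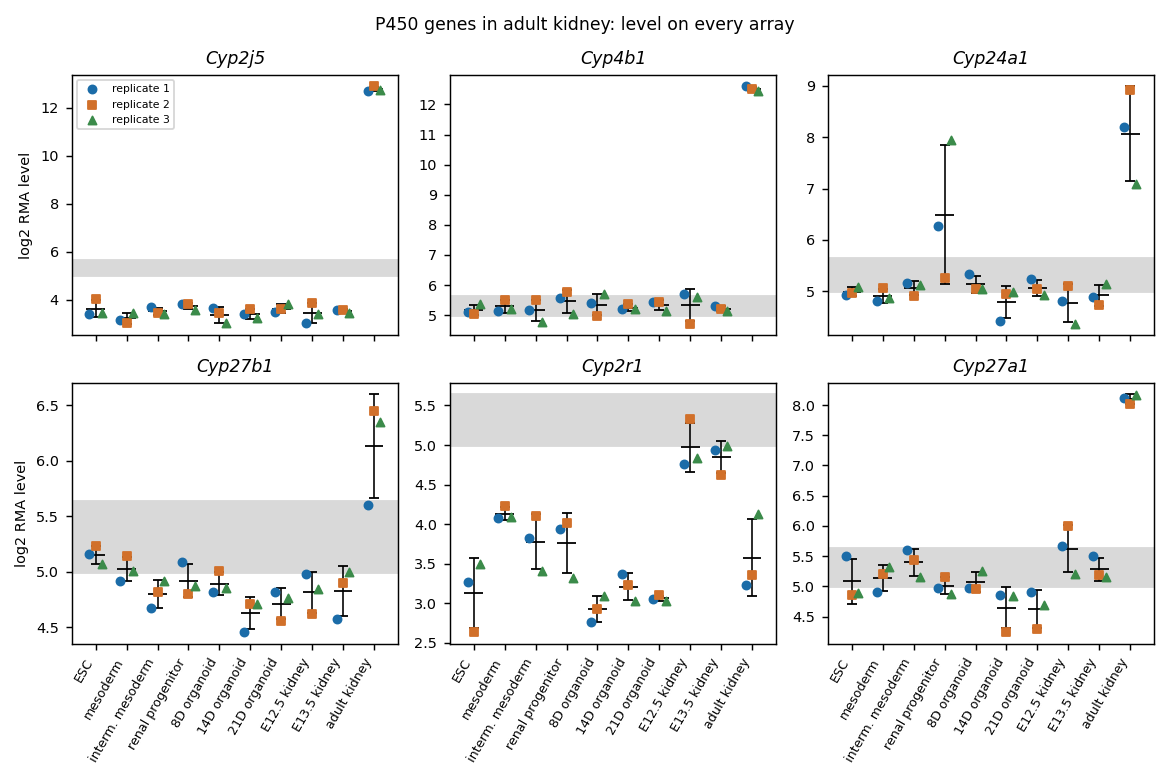
Log2 levels of 6 P450 genes on each of the 30 arrays, with the replicate shown by shape and colour, the group mean by a line and the SD by bars. The grey band spans the background percentile over the arrays. Cyp2j5, Cyp4b1 and Cyp27a1 stand out in adult kidneys alone, Cyp24a1 also in renal progenitors 1 and 3, and Cyp2r1 stays at or below the band.

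Of 6 genes of cholesterol and bile acid metabolism, 2 rose and 2 fell. Cyp27a1, which oxidizes the sterol side chain in mitochondria, was 8.11, 8.02 and 8.17 in adult kidneys against 5.16, 5.36 and 5.99 (lowest, median, highest), 6.40-fold higher (adjusted p = 3.02e-12). Cyp7b1, which hydroxylates oxysterols, was 11.53, 11.08 and 11.61 against 7.72, 7.98 and 8.27, 9.80-fold higher (adjusted p = 1.98e-11). For these genes the groups were clearly apart. Cyp39a1, another oxysterol hydroxylase, was 6.79, 6.46 and 7.62 against 7.72, 8.14 and 8.68, 2.41-fold lower (adjusted p = 9.06e-05). Cyp46a1, the cholesterol hydroxylase of neurons, was 6.10, 5.94 and 6.01 against 6.39, 6.48 and 6.69, 1.39-fold lower (adjusted p = 0.0265), a call that was lost with quantile normalization (adjusted p = 0.0594) and without adult replicate 2 or 3 or E13.5 replicate 3 (adjusted p = 0.0847, 0.0662 and 0.0606). Cyp7a1, the rate-limiting enzyme of bile acid synthesis, stayed at background, with levels from 2.89 to 3.88 over all arrays, and Cyp8b1 did not pass in any comparison.

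Family 1 enzymes, targets of the Ah receptor, split. Cyp1b1 was 6.79, 5.56 and 6.49 in adult kidneys and 6.64, 6.95 and 7.25 (lowest, median, highest) in embryonic kidneys, with overlap, 1.76-fold lower (adjusted p = 0.022), a call lost without adult replicate 2 (log2 difference -0.45, adjusted p = 0.243) and without a batch term (adjusted p = 0.0989). Cyp1a2 was 5.85, 5.28 and 6.65 against 5.02 to 5.40, with overlap (log2 difference 0.69 ± 0.19, adjusted p = 0.00392), and without adult replicate 3 the difference was 0.33 (adjusted p = 0.111). Cyp1a1 did not pass. Cyp20a1, the enzyme without a known substrate, was 7.40, 7.43 and 7.88 in adult kidneys and 8.24, 8.48 and 8.50 in embryonic kidneys, 1.87-fold lower without overlap (adjusted p = 1.28e-06). None of the 6 steroid hormone genes (Cyp11a1, Cyp11b1, Cyp11b2, Cyp17a1, Cyp19a1 and Cyp21a1) passed between adult and embryonic kidneys.

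The proteins that serve P450 enzymes rose in part. Of 8 genes of electron transfer, 4 were higher in adult kidneys and none was lower. Por was 9.37, 9.41 and 9.12 in adult kidneys and 7.58 to 7.80 in embryonic kidneys, 3.05-fold higher (adjusted p = 4.65e-10), and the ferredoxin gene Fdx1 was 7.88, 8.05 and 8.64 against 6.40 to 6.66, 3.23-fold higher (adjusted p = 6.98e-11). Of 11 genes of heme synthesis and breakdown 7 were higher and 1 lower. Of 17 known regulators 11 were higher and 1 lower, with Hnf4a at 10.65, 10.59 and 10.35 against 5.58 to 6.45.

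Other markers moved with the adult rises. All 15 proximal tubule genes were called higher, their mean rising from 5.20 to 5.40 on embryonic arrays to 10.89 to 11.25 on adult arrays. Adult replicate 3 also held liver transcripts: Alb was 10.03 there against 6.89 and 5.80, Ahsg 7.85 against 5.33 and 5.41, and the mean of the 10 hepatocyte and yolk sac genes reached 7.43 against 5.98 and 6.34. Several P450 genes were highest on that array, with Cyp2f2 at 7.57 against 5.92 and 5.66, Cyp2c67 at 4.93 against 3.14 and 2.89, Cyp2c70 at 5.93 against 4.14 and 4.62, and Cyp1a2 at 6.65 against 5.85 and 5.28. Cyp2c67 and Cyp2f2, with Cyp2b10 (5.09, 7.08 and 6.02), had the largest SDs among adult kidneys, at 1.11, 1.04 and 1.00. The part of the liver transcripts in these values was not tested, and without replicate 3 the comparison called 38 P450 genes in place of 43, Cyp2c67 (adjusted p = 0.712) and Cyp2c70 (adjusted p = 0.0962) among those lost. Fibroblast and feeder genes were lower in adult kidneys for 7 of 8, with a list mean of 5.72 to 6.14 against 8.47 to 8.99, and their part in the P450 values was not tested. The adult arrays had Xist at 4.10 to 4.49 and Ddx3y at 8.48 to 8.92, while embryonic kidneys had both, Xist at 8.80 to 10.31 and Ddx3y at 8.05 to 8.60, so the adult rises of male-biased genes such as Cyp4a12a and Cyp2d9 cannot be told apart from the sex of the adult animals.

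Between E13.5 and E12.5 kidneys no P450 gene passed the test in either direction, and 0% of all genes were called higher and 0% lower. At an unadjusted p under 0.05, limma gave 3 of the 91 P450 genes and 465 of all genes.

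Organoids of day 21 were compared with adult kidneys to ask how far P450 levels of the mature organ were reached. Lower in 21D organoids were 38 of 91 P450 genes (41.8%, against 24% of all genes), and higher were 9 (9.89%, against 24.4% of all genes). The adult arrays are shared with the comparison above. The median log2 difference was -0.349 over the P450 genes and -0.071 over all genes.

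None of the adult kidney's leading P450 genes was near its adult level in 21D organoids. Cyp2j5 was 3.47, 3.59 and 3.82, Cyp4a12a 4.28, 3.87 and 4.14, Cyp2e1 4.88, 4.64 and 5.05, and Cyp2a4 2.27, 2.39 and 2.78, all at background. Cyp4b1 was 5.44, 5.43 and 5.14, and Cyp2j13 4.23, 4.40 and 3.78. Adult kidneys were at least 206-fold higher for Cyp2j5 (adjusted p = 1.22e-21), at least 166-fold for Cyp2e1 (adjusted p = 5.30e-19), at least 130-fold for Cyp4a12a (adjusted p = 1.09e-18), at least 90.7-fold for Cyp2j13 (adjusted p = 1.43e-16) and at least 27.4-fold for Cyp2a4 (adjusted p = 2.67e-19). Cyp4b1, just above background on all 3 of the 21D arrays, was 145-fold higher in adult kidneys (adjusted p = 2.36e-18), and no array of these 6 genes overlapped. For vitamin D, Cyp24a1 was 5.23, 5.04 and 4.93 and Cyp27b1 4.82, 4.56 and 4.76 in 21D organoids, with adult kidneys at least 2.03-fold higher for Cyp27b1 (adjusted p = 1.17e-07) and 8.01-fold higher for Cyp24a1 (adjusted p = 1.73e-06). The proximal tubule genes averaged 5.39 to 5.65 in 21D organoids. The 8 fibroblast and feeder genes were all higher there than in adult kidneys, and 4 of 6 pluripotency genes were higher. Their part in the P450 values was not tested. A list of 5 sex chromosome genes, Xist and Y-linked genes, averaged 4.24 to 4.35 in 21D organoids, with 0 above background. In adult kidneys it averaged 7.22 to 7.46. For male-biased genes such as Cyp4a12a, sex and the other differences between these groups cannot be told apart.

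Of the 9 genes higher in 21D organoids than in adult kidneys, 5 did so without overlap. Cyp2f2, known from lung airway cells and liver, was 9.12, 10.63 and 10.03, against 5.92, 5.66 and 7.57 in adult kidneys (11.7-fold, log2 difference 3.54 ± 0.69, adjusted p = 0.000126). Cyp39a1 was 7.82, 8.71 and 8.60, 2.68-fold higher (adjusted p = 0.000136), and Cyp2w1, known from fetal tissues and colon tumours, was 5.84, 6.79 and 6.87, 2.23-fold higher (adjusted p = 4.73e-05). Cyp46a1 and Cyp20a1 were 1.78-fold and 1.57-fold higher (adjusted p = 0.00129 and 0.000603).

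Against embryonic kidneys, 21D organoids had 13 of 91 P450 genes higher (14.3%, against 12.1% of all genes) and 4 lower (4.4%, against 16.2% of all genes). The share higher was near the background share. Of these 17, 7 were at background in both groups. Cyp2f2 rose most, from a lowest, median and highest level of 4.78, 5.01 and 5.30 in embryonic kidneys (30.4-fold, log2 difference 4.92 ± 0.60, adjusted p = 1.34e-06). Only 2 of the 6 embryonic arrays exceeded background, and with the background percentile as floor the log2 difference was 4.77. The size of this fold, and of that for progenitors against embryonic kidneys below, is therefore uncertain. Cyp4f13 was 7.59, 7.72 and 7.98 in 21D organoids, 3.86-fold above its 5.36, 5.78 and 6.24 in embryonic kidneys (adjusted p = 3.51e-08). Cyp2w1 was 2.44-fold higher (adjusted p = 8.54e-06) and its arrays did not overlap.

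Among the 4 that were lower, Cyp2r1 was 3.05, 3.10 and 3.03 in 21D organoids (adjusted p = 4.53e-07), at background, as were all but 1 of the embryonic arrays, so no fold is given. Cyp27a1 was 4.90, 4.29 and 4.69, at background, with embryonic kidneys at least 1.27-fold higher (adjusted p = 0.00142). Cyp1b1, at 6.02, 6.50 and 6.22, was 1.80-fold lower (adjusted p = 0.0299), a call lost with batch 2 alone (adjusted p = 0.0529), without a batch term (adjusted p = 0.122) and without 21D replicate 1 or 3 (adjusted p = 0.128 and 0.0819), among others. Cyp3a57, at background in both groups, lost its call with batch 2 alone (adjusted p = 0.0544) and without any 21D replicate (adjusted p = 0.0849, 0.0501 and 0.11). Of those that were higher, Cyp2b23 lost its call without 21D replicate 1 (adjusted p = 0.116), and Cyp2c70 without 21D replicate 3, which took its log2 difference from 1.24 to 0.62 (adjusted p = 0.129). Without that replicate 11 P450 genes were called in place of 17.

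Cyp2c55 and Cyp3a13, grouped here after their values were seen, were above background on 2 of the 3 21D arrays. Cyp2c55, an enzyme of colon epithelium, was 3.94, 7.05 and 6.06 in replicates 1, 2 and 3, and Cyp3a13, an intestinal family 3 enzyme, was 3.75, 5.73 and 6.15. Their relatives Cyp2c65 (2.21, 4.06 and 4.66) and Cyp2c66 (1.57, 3.63 and 4.06) ran the same way below the background level. In 8D organoids Cyp2c55 was 3.50, 3.79 and 3.35 and Cyp3a13 4.61, 3.91 and 4.32, so 21D replicate 1 was close to them. Intestinal markers, from a list of 9 chosen after these values were seen, were also higher in replicates 2 and 3. Fabp2 was 3.71, 5.82 and 7.86, Cdh17 4.96, 6.55 and 6.98, and the list mean 5.0, 5.75 and 6.34, with 3, 6 and 8 of the 9 genes above background, while Cdx1 was at background and Cdx2 at 5.76, 6.07 and 5.85. The liver and yolk sac genes were high on all 3 (Alb 10.55, 10.62 and 11.16), and their mean was 7.15 to 8.12 against 5.41 to 6.02 in 8D organoids. The part of such cells in the P450 values was not tested.

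From 8D to 21D organoids, 7 P450 genes rose (7.69%, against 5.95% of all genes) and none fell, where 5.54% of all genes did. Cyp2c55 rose at least 1.47-fold (adjusted p = 0.00312), although replicate 1 lay only slightly above the 8D arrays. Cyp2w1 rose 2.13-fold from 5.50, 5.50 and 5.21 (adjusted p = 0.00132). Cyp7b1, at 6.26, 7.24 and 7.10 in 8D and 7.39, 8.10 and 7.99 in 21D organoids, rose 1.95-fold (adjusted p = 0.0252), and Cyp46a1 rose 1.64-fold (adjusted p = 0.021). Cyp2f2 passed with overlapping arrays (8D 6.58, 9.47 and 7.25, adjusted p = 0.0427; 0.0613 with batch 2 alone and 0.258 without 8D replicate 1), and Cyp2c66 and Cyp2c68 passed at background. When these groups were fitted alone, limma called 0 P450 genes. The count of 7 moved to 11 without 21D replicate 1, to 2 without 21D replicate 2, and to 3 without 21D replicate 3 or 8D replicate 1.

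Of the 6 steroid hormone genes, 2 were raised on single arrays of a group. Cyp11a1, which cleaves the cholesterol side chain, and Cyp17a1, which makes androgen precursors, were raised together on 1 array of each organoid age. In 8D organoids Cyp11a1 was 5.02, 6.03 and 4.70 and Cyp17a1 4.41, 6.63 and 4.31, highest in replicate 2. In 14D organoids they were 6.84, 4.84 and 5.11, and 7.39, 4.26 and 4.19, highest in replicate 1. In 21D organoids they were 6.32, 5.17 and 5.05, and 5.86, 4.67 and 4.68, again highest in replicate 1. Outside the organoids Cyp17a1 did not exceed 4.68, and Cyp11a1 exceeded 5.30 only in renal progenitor replicate 1, at 5.82. Neither gene passed the test in any comparison. The other 4 steroid hormone genes (Cyp11b1, Cyp11b2, Cyp19a1 and Cyp21a1) were above background in no group, and of them only Cyp11b1, the last enzyme of corticosterone synthesis, passed once, at 3.82, 4.03 and 4.04 in 21D organoids and 4.65, 4.82 and 4.58 in adult kidneys (log2 difference -0.72 ± 0.21, adjusted p = 0.00595).

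On the same 3 organoid arrays, 7 of 10 trophoblast markers had their highest level within each organoid age, in a list chosen after these values were seen. Hand1 did not follow, at 9.61, 7.26 and 9.75 in 8D organoids and 6.46, 5.45 and 6.56 in 21D organoids. Prl3d1, a placental hormone of trophoblast giant cells, was 9.62 in 8D replicate 2, 10.57 in 14D replicate 1 and 10.18 in 21D replicate 1, and 3.69 to 4.92 on the other 6 organoid arrays. Tpbpa was 7.04, 7.78 and 6.49 on those arrays and 3.57 to 5.13 on the others. The list mean was 5.86, 6.21 and 5.81 against 4.21 to 4.94, with 7, 8 and 8 of the 10 genes above background, while Tpbpb and Gcm1 were at background. Of the adrenal and gonad markers, Star was 5.54, 5.78 and 5.62 on these arrays against 4.83 to 5.29 on the other 6, and Nr5a1 was 5.53, 5.35 and 5.21 against 5.12 to 5.56. The part of trophoblast cells in the P450 values was not tested.

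**Figure D4:**
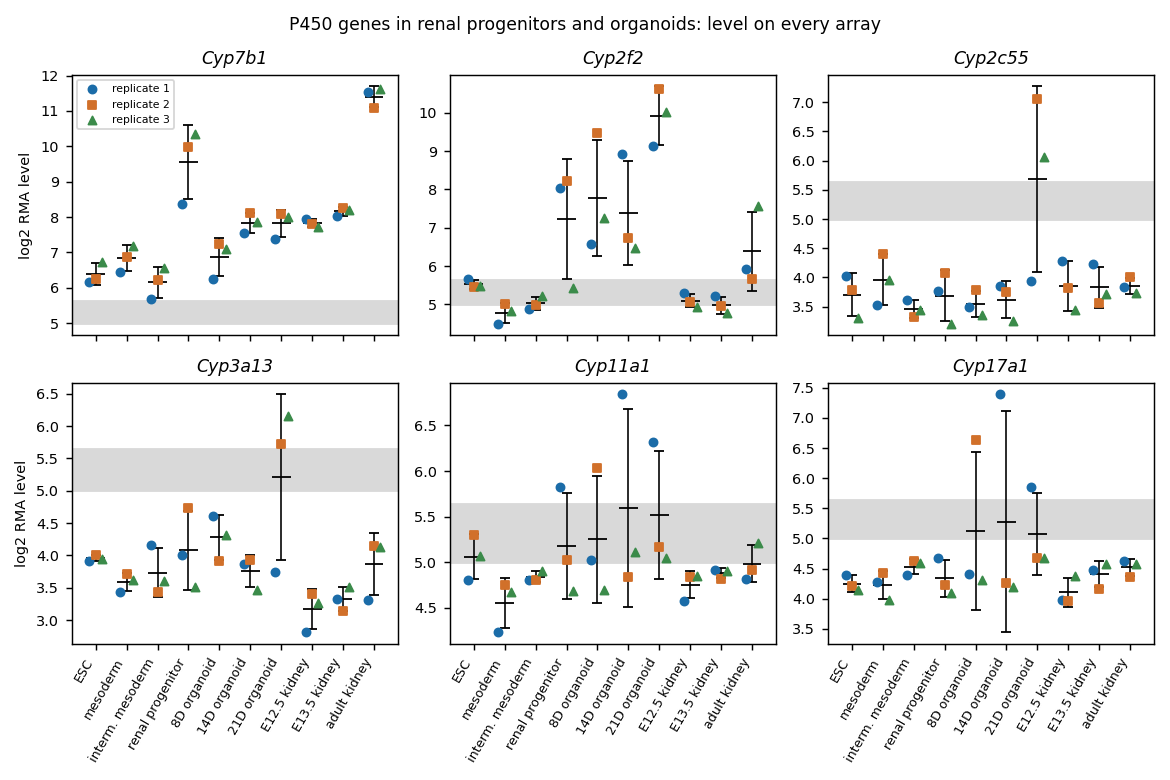
Log2 levels of 6 P450 genes on each of the 30 arrays, with replicates by shape and colour, group mean as a line, SD as bars and the background band in grey. Cyp7b1 peaks in renal progenitors among cultured cells, Cyp2f2 is raised from progenitors to 21D organoids, Cyp2c55 and Cyp3a13 are raised in 21D replicates 2 and 3, and Cyp11a1 and Cyp17a1 on 1 array of each organoid age.

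Renal progenitors were compared with intermediate mesoderm cells, from which they were made. In progenitors 10 of 91 P450 genes rose (11%, against 10.7% of all genes) and 2 fell (2.2%, against 15.9% of all genes). The median log2 difference was 0.197 over the P450 genes and 0.017 over all genes. The background percentile was 5.64, 5.5 and 5.08 on the progenitor arrays and 5.11, 5.05 and 5.12 on those of intermediate mesoderm cells. Most P450 genes lay at background, and the part of this array difference in the median was not tested. Cyp7b1 rose most, from 5.69, 6.21 and 6.56 to 8.38, 9.97 and 10.34, without overlap (10.6-fold, log2 difference 3.41 ± 0.28, adjusted p = 1.49e-08). It kept its call under every alternative run. Markers of other cells also moved, 7 of 8 fibroblast and feeder genes being higher in progenitors (median log2 difference 1.90) and 5 of 6 pluripotency genes lower (median -1.72), and their part in the P450 values was not tested.

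Cyp46a1 was 7.03, 6.54 and 7.35 in progenitors and 6.30, 5.60 and 5.67 in intermediate mesoderm cells, 2.17-fold higher (adjusted p = 0.000198). Cyp2d22 was 6.12, 6.74 and 6.77 against 5.65, 4.71 and 5.33, 2.49-fold higher (adjusted p = 0.000479). Both genes were higher on every progenitor array. Cyp24a1 was 6.28, 5.25 and 7.94 against 5.16, 4.91 and 5.12 (2.70-fold, adjusted p = 0.0132), and the value rested on replicate 3, without which the log2 difference went from 1.43 to 0.69 (adjusted p = 0.142). Cyp2f2 was 8.04, 8.21 and 5.43 against 4.89, 4.98 and 5.22 (4.59-fold, adjusted p = 0.0195), and lost its call with batch 2 alone (adjusted p = 0.201) and without progenitor replicate 1 or 2 (adjusted p = 0.113 and 0.124). Only 1 of the 3 intermediate mesoderm arrays exceeded background for Cyp2f2, so the size of its fold is uncertain. Cyp39a1 fell 1.72-fold, from 8.26, 8.46 and 8.44 to 7.83, 7.13 and 7.87 (adjusted p = 0.0401), a call lost without progenitor replicate 2 (adjusted p = 0.239). With batch 2 alone the comparison called 5 P450 genes in place of 12, and without intermediate mesoderm replicate 1, 2 or 3 it called 6, 4 and 5.

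Among renal progenitors, Cyp24a1 and Cyp7b1 were highest in replicate 3, the array with Nanog near background, and Cyp2f2 lowest there. Cyp1b1 was 6.53, 7.76 and 8.49 in the same order. Cyp2s1, an epithelial P450 gene above background in all groups, was 8.01, 8.67 and 6.37, so that replicate 3 lay below the 6.78, 6.41 and 6.42 of intermediate mesoderm cells although the test was passed (adjusted p = 0.0169; 0.194 without progenitor replicate 2). In renal progenitors 6 P450 genes had an SD over 1, against 0 to 5 in the other groups. The median SD over all genes was highest in progenitors too, at 0.26 against 0.146 to 0.219 in the other groups. The wider spread is therefore no trait of P450 genes alone.

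Against embryonic kidneys, 16 P450 genes were higher in renal progenitors (17.6%, against 14.2% of all genes) and 2 lower (2.2%, against 20% of all genes). Cyp4f13, at 7.60, 7.55 and 7.90, was 3.55-fold higher (adjusted p = 5.70e-08), and Cyp7b1 was 3.23-fold higher (adjusted p = 7.25e-06). Cyp24a1 was 3.17-fold higher (adjusted p = 0.000991) and Cyp2f2 4.42-fold (adjusted p = 0.00708), the latter lost with batch 2 alone (adjusted p = 0.0817) and without progenitor replicate 1 or 2 (adjusted p = 0.0602 and 0.095), where the comparison called 10 and 11 genes in place of 18. Cyp2r1 was lower, at 3.94, 4.02 and 3.32 (adjusted p = 9.23e-05), at background, so no fold is given. These values share the embryonic arrays with the comparisons above.

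From renal progenitors to 8D organoids, 7 P450 genes fell (7.69%, as 7.69% of all genes did) and 2 rose (2.2%, against 11.7% of all genes). Cyp7b1 fell from 8.38, 9.97 and 10.34 to 6.26, 7.24 and 7.10, 7.67-fold lower (log2 difference -2.94 ± 0.28, adjusted p = 7.24e-07), with every organoid array below every progenitor array. It was the only P450 gene called when those 2 groups were fitted alone. In the full model 3 falls were at least 2-fold, those of Cyp7b1, Cyp1b1 and Cyp24a1. The group mean of Cyp1b1 went from 7.59 to 6.35 and that of Cyp24a1 from 6.49 to 5.14, each with overlapping arrays. For Cyp24a1 only 1 of the 3 organoid arrays exceeded background. Cyp2r1 was also called lower, at background in both groups (adjusted p = 0.0211). Cyp46a1 was 1.78-fold lower (adjusted p = 0.00527; 0.0533 without progenitor replicate 3) and Cyp4f17 1.61-fold lower (adjusted p = 0.0256), the latter lost without progenitor replicate 3 (adjusted p = 0.272). Cyp39a1 was 1.75-fold higher (adjusted p = 0.0492), lost without progenitor replicate 2 (adjusted p = 0.304). Pluripotency genes were higher in 8D organoids for 5 of 6, and their part was not tested. Without 8D replicate 1 or 3 the comparison called 5 P450 genes in place of 9.

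From ESCs to mesoderm cells 1 rose (1.1%, against 5.86% of all genes) and 1 fell (1.1%, against 5.8% of all genes). Cyp4f13 went from 8.78, 8.76 and 8.54 to 6.88, 6.01 and 6.63, 4.56-fold lower (adjusted p = 5.03e-07), and Cyp2r1 passed the test at background in both groups (log2 difference 1.00 ± 0.24, adjusted p = 0.00625), though not without ESC replicate 2 (adjusted p = 0.061). With these groups alone 6 P450 genes were called in place of 2, and with array weights 7. From mesoderm to intermediate mesoderm cells 2 rose (2.2%, against 3.15% of all genes) and 1 fell (1.1%, against 3.9% of all genes), and 7 in place of 3 were called with these groups alone and 7 with array weights. Cyp4f13 returned to 7.82, 7.68 and 7.58, 2.28-fold higher (adjusted p = 0.00118). Cyp1b1 rose from 5.88, 5.79 and 6.23 to 6.63, 7.44 and 7.32, 2.23-fold (adjusted p = 0.033), a call lost with batch 2 alone (adjusted p = 0.0526) and without a batch term (adjusted p = 0.0788). Cyp2j13 fell from 4.75, 5.81 and 5.51 to 3.80, 4.22 and 4.07, at least 1.20-fold (adjusted p = 0.00622), lost without mesoderm replicate 2 (adjusted p = 0.0567).

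**Figure D5:**
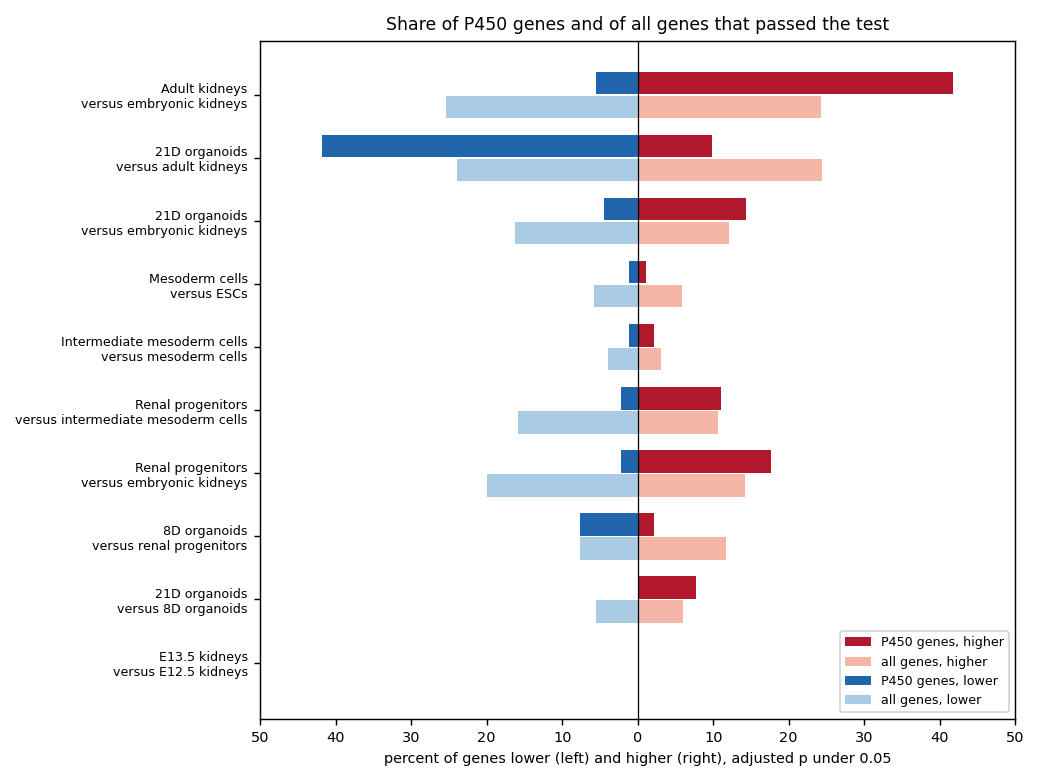
For each of the 10 comparisons, dark bars give the percent of the 91 P450 genes that were higher (right) or lower (left) and pale bars the percent of all 23986 genes. In adult against embryonic kidneys 41.8% of P450 genes were higher, against 24.3% of all genes, and in 21D organoids against adult kidneys, which share the adult arrays, 41.8% were lower, against 24%.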

How the data were processed

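RNA was hybridised by the authors to Affymetrix whole-transcript mouse arrays, and the deposited values are log2 expression per gene after RMA (background correction, quantile normalization and summary of probes), with limma named for their own tests. Their versions and the annotation build: not given in the sources used here. From these log2 values a linear model of group (10 levels) and batch was fitted to all 30 arrays with limma 3.58.1 in R 4.3.3 (19 residual degrees of freedom), and p-values were adjusted by Benjamini-Hochberg over 23986 genes. For embryonic kidneys the E12.5 and E13.5 group terms were averaged. Sequence searches and plots used Python 3.11.15.

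The P450 genes and gene lists were chosen with earlier results of these data known, and the trophoblast and intestinal lists, and the motifs, after values were seen. The rule for naming was, per comparison, up to 6 rises and up to 6 falls of largest size among genes called without overlap between groups, all vitamin D, steroid, cholesterol and family 1 genes, the 3 of largest adult SD and the 5 of highest level in 4 groups. Not every gene that met the rule is given for every comparison, Cyp2d26, Cyp2c29, Cyp2j9 and Cyp4f15 being among those left out. Other genes were chosen after their values were seen. Arrays give no read depth, so the number of arrays (3 per group) limits precision, and near-identical genes (Cyp4a12a and Cyp4a12b, the Cyp2a, Cyp2c, Cyp2d and Cyp3a clusters) may share probe signal. The model was tested on simulated data. Alternatives were batch 2 alone, no batch term, compared groups alone, array weights, a replicate block, a filter on dim genes, quantile normalization, a trended robust prior and leaving out each replicate. Deviations of samples of the same replicate number correlated at most weakly, and whether the numbers pair samples is not known.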

Additional observations from a re-analysis of the deposited data

Results flagged for a closer look

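Among the 23 P450 genes tested on the 6 embryonic kidney arrays, 2 had an array far from the others, its gap to the nearest array taking more than 0.625 of the whole range. Chance flags about 1 in 20 such groups. Cyp4a12a was 4.35 in E12.5 replicate 3, against 3.26 to 3.64 on the other embryonic arrays, all of them at background. Cyp20a1 was 8.24 in E12.5 replicate 3, against 8.44 to 8.50 on the others, and remained above the 7.40 to 7.88 of adult kidneys.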

How the results depend on the processing

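Of all 158 P450 differences called over the comparisons, 90 kept their call under every alternative that gave a value, 68 lost it under at least 1 and 0 changed direction. Among the 61 largest without overlap between groups these counts were 37, 24 and 0. The filter on dim genes gave no value for 57 of the 158. Counts of P450 genes called moved by over 1.5 times as follows. With batch 2 alone, progenitors against intermediate mesoderm gave 5 (from 12) and against embryonic kidneys 11 (from 18). With the compared groups alone, mesoderm against ESCs gave 6 (from 2), intermediate mesoderm against mesoderm 7 (from 3), progenitors against intermediate mesoderm 3, 8D organoids against progenitors 1 (from 9) and 21D against 8D organoids 0 (from 7). With array weights the 2 early steps gave 7 and 7. With the filter on dim genes, which kept 17544 genes and so tested fewer P450 genes, adult against embryonic kidneys gave 26 (from 43), 21D organoids against adult kidneys 28 (from 47), against embryonic kidneys 6 (from 17) and against 8D organoids 4. Except for the filter, the cause was not tested.

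Leaving out 1 array at a time gave 38 to 45 calls for adult against embryonic kidneys, 41 to 47 for 21D organoids against adult kidneys, 11 to 18 against embryonic kidneys and 2 to 11 against 8D organoids. It gave 1 to 2 for mesoderm against ESCs (1 without ESC replicate 2), 1 to 3 for intermediate mesoderm against mesoderm (1 without mesoderm replicate 2), 4 to 11 for progenitors against intermediate mesoderm (5 without progenitor replicate 2), 10 to 16 against embryonic kidneys, 5 to 8 for 8D organoids against progenitors and 0 to 0 for E13.5 against E12.5 kidneys.

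With the replicate number as a block, the counts in the order of adult against embryonic kidneys, 21D organoids against adult and embryonic kidneys, the 2 early steps, progenitors against intermediate mesoderm and embryonic kidneys, 8D organoids against progenitors and 21D against 8D organoids were 45, 48, 19, 3, 3, 13, 16, 8 and 7, and 0 between E13.5 and E12.5 kidneys. The call was kept by 154 of the 158 differences. Correlations between same-numbered samples ran from -0.22 to 0.28, the highest being replicate 3 of 8D organoids against progenitors. No reference from samples of unlike number was computed, so these values cannot tell whether the numbers pair the samples. With the 99th percentile as background gauge, 27 P450 genes were above it in at least 1 group in place of 36. Low signal limits sizes: of the 43 genes called between adult and embryonic kidneys, 10 were at background in both.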
